A study of Mus musculus with 7 samples.

Results

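The genes described here are 10 enzymes and chaperones that fold, hydroxylate and cross-link collagen: the lysyl oxidases Lox, Loxl1, Loxl2, Loxl3 and Loxl4, the lysyl hydroxylases Plod1, Plod2 and Plod3, and the chaperones P4hb and Serpinh1. They were taken by gene name from the 25322 genes of a table of normalized counts, each name matched 1 row, and all 10 passed the filter on low values, as did 18141 genes in all. The table covers 7 RNA-seq libraries made in bulk from sorted tdTomato-expressing skin cells of mice at day 36, 3 controls and 4 Zfp750 knockouts (Zfp750_KO). Zfp750 is the mouse counterpart of ZNF750, a transcription factor of epidermal differentiation. Per the labels, control and knockout mice alike carried 1 copy of a Lrig1-driven, tamoxifen-inducible Cre (given as Lrig1-CreERT2 +/- or Lrig1-CreER +/-), and 4-hydroxytamoxifen was given to pups from day 4 to 7 or from day 5 to 8. The controls are given as ZNF750 wt/fl (2) or wt/wt (1), all Rosa26 +/-. The knockouts are given as ZNF750 fl/fl, 3 of them Rosa26 +/- and 1 Rosa26 -/-. Lrig1 marks stem cells of the junctional zone of the hair follicle, so the Cre limits recombination to Lrig1-expressing cells and their descendants. The table's columns carry short names that give the group but match no single title, and the libraries are called by them: 3 controls (4F, 4M, 7F) and 4 knockouts (1M, 2M, 3F, 6F). Below, values of the controls are in the order 4F, 4M, 7F and values of the knockouts in the order 1M, 2M, 3F, 6F. No label states that each library came from its own animal, and the p-values cover the spread among libraries alone.

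Collagen chains are modified in the endoplasmic reticulum before they are secreted. Lysyl hydroxylases add hydroxyl groups to lysines, prolyl hydroxylases do so on prolines with P4hb, a protein disulfide isomerase, as their shared beta subunit, and Serpinh1 (HSP47) holds the folded triple helix during export. Outside the cell, lysyl oxidases oxidise lysines and hydroxylysines of collagen and elastin to aldehydes that form covalent cross-links. In skin most of these enzymes are made by dermal fibroblasts.

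Markers of different cell types varied widely between the libraries. Recovered read totals were 9.09 to 17.1 M. Levels per M of the column total were 4.46 (control 4F) to 1247 (knockout 3F) for the leukocyte gene Ptprc, 67.5 to 1112 for Krt5, a keratin of basal keratinocytes, and 5483 to 81016 for the collagen chain Col1a1. Krt5 lay below Col1a1 in all 7 libraries. A macrophage score, the average over 22 genes of macrophages and monocytes on the log2 scale, was 5.88, 9.97 and 10.2 in the controls and 7.32, 6.96, 11.1 and 10.8 in the knockouts. The mean of 16 fibroblast genes, the fibroblast score, was 12.7, 12.2 and 12.1 in the controls and 12.6, 12.6, 11.2 and 10.96 in the knockouts. In bulk libraries, fewer cells of a type and less RNA per cell cannot be told apart. Zfp750 itself had normalized counts of 51.2 to 335 in the controls and 10.1 to 48.9 in the knockouts. Every knockout was below every control, as in 3.91% of all genes. In the limma fits described below its adjusted p was 0.891 with the group term and 0.0562 with the macrophage score. Control 4M stood apart in 1 respect: beside the Y-linked Ddx3y at 810 it held the X-inactivation RNA Xist at 3318, where the libraries named F held 23423 to 55719 and 1M and 2M at most 6.24. Both low-score knockouts are named M and both high-score knockouts F, so sex and score cannot be told apart within Zfp750_KO.

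RefSeq promoter windows (GRCm38.p6, 250 bases before to 50 after the start) matched 5 of the 10 genes. Those of Serpinh1, P4hb and Plod3 are shown because these genes span the range of behaviour described below, from the gene that varied most among the chaperones to the one of the 10 that varied least. The window of Serpinh1 is chr7:99353190-99353489 on the minus strand, that of P4hb chr11:120573204-120573503 on the minus strand and that of Plod3 chr5:136986769-136987068 on the plus strand, each written 5′ to 3′ on the gene's strand. Capitals mark matches, on either strand, to CCAAT (the CCAAT box), ACGTG (the core of the hypoxia response element) and TATAAA (the TATA box).
Serpinh1: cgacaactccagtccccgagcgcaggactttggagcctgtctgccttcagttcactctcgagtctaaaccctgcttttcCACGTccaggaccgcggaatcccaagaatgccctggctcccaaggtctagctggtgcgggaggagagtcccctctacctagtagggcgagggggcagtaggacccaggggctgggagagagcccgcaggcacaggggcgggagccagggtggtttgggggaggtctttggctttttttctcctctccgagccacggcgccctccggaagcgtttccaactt
P4hb: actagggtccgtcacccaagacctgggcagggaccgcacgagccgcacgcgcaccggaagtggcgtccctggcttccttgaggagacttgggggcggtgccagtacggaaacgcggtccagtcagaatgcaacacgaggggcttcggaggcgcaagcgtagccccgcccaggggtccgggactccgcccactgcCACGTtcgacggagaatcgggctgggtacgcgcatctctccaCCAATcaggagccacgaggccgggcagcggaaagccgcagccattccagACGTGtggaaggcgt
Plod3: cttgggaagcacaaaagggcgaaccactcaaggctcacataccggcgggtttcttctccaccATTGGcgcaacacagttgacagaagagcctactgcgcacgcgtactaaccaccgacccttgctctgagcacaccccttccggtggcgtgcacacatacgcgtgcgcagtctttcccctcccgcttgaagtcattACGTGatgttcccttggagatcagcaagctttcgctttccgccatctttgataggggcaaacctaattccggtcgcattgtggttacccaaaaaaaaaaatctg
Of the 5 windows, 3 hold ACGTG (Serpinh1, P4hb with 2 matches, and Plod3) and those of Loxl4 and Plod1 do not, against 19.6% of all 32851 windows of this length. CCAAT is in 2 of the 5 (P4hb and Plod3) and in 37.4% of all windows. TATAAA is in 1 of the 5 (Plod1) and in 13.6% of all windows. GGGCGG, the GC box, left in lower case above, is in 4 of the 5 (Loxl4, P4hb and Plod1 with 3 matches each and Serpinh1 with 1) and in 35.7% of all windows. The windows are 62.3%, 67% and 53.3% GC for Serpinh1, P4hb and Plod3, against a median of 52.7%. A match to these letters is a description of the sequence and not a site of binding.

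Libraries labelled knockout were set against those labelled control to see what differs between these groups of sorted cells. None of the 10 genes differed between the groups in limma with the group as its only term, and none of them separated the groups: in every one the knockout libraries spanned or overlapped the control values. The knockouts were instead split. Zfp750_KO 1M and 2M held the highest level of 8 of the 10 genes and Zfp750_KO 3F and 6F the lowest level of 8, as they did for 27.8% and 32.8% of all genes.

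**Figure D1:**
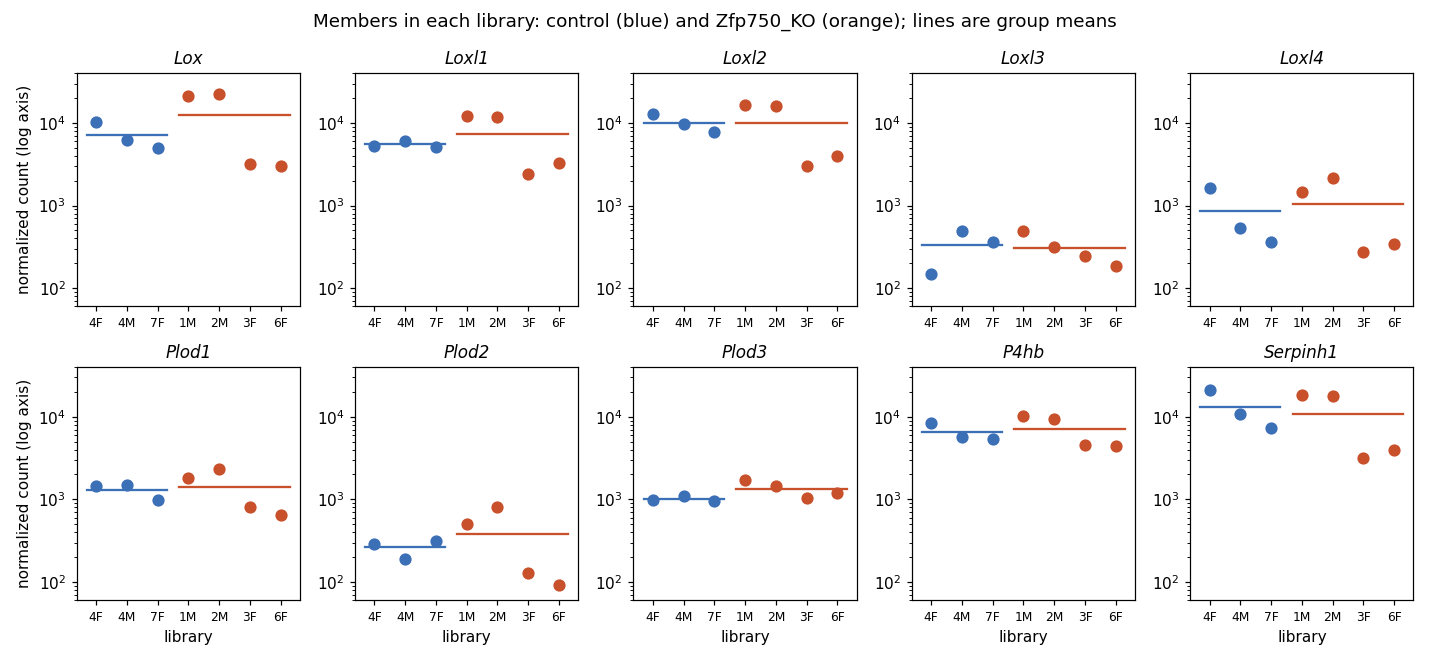
Normalized counts on a log axis of the 10 genes in each library, with a point per library and a line at each group mean. Zfp750_KO 1M and 2M lie above all 3 controls and 3F and 6F below them for Lox, Loxl1, Loxl2, Plod1, Plod2 and P4hb, whereas Plod3 stays between 957 and 1738 throughout.

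Among the lysyl oxidases, Lox (ENSMUSG00000024529, chromosome 18), the founding member of the family, had normalized counts of 10380, 6194 and 5039 in the controls. In the knockouts it was at 20892, 22346, 3166 and 3038. The first pair of knockouts stood above every control and the second pair below every control. The means were 7204 ± 2810 (SD, n = 3) and 12360 ± 10707 (SD, n = 4), a log2 difference of 0.25 ± 0.83 (SE). Loxl1 (ENSMUSG00000032334, chromosome 9), which acts in the assembly of elastic fibres, was nearly level over the controls, at 5313, 6113 and 5119. Its knockout values of 12041, 11758, 2376 and 3255 fell on both sides of them. Loxl2 (ENSMUSG00000034205, chromosome 14), which cross-links type IV collagen of basement membranes, was at 12686, 9574 and 7663 in the controls and at 16618, 16219, 2970 and 3956 in the knockouts, with the same split.

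Loxl3 (ENSMUSG00000000693, chromosome 6) and Loxl4 (ENSMUSG00000025185, chromosome 19) were at lower counts. Loxl3 was at 146, 497 and 364 in the controls and at 488, 315, 246 and 188 in the knockouts. It was the only 1 of the 10 genes with its lowest value in control 4F. Loxl4 was at 1651, 536 and 366 in the controls and 1447, 2140, 274 and 342 in the knockouts. Here control 4F, the control with the lowest macrophage score, stood with 1M and 2M, and every other library lay below them.

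The lysyl hydroxylases differed among themselves. Plod2 (ENSMUSG00000032374, chromosome 9), the enzyme that hydroxylates lysines of the collagen telopeptides, was at 285, 189 and 311 in the controls and 510, 810, 128 and 91.0 in the knockouts. Its highest value was 8.9-fold its lowest, the widest range of the 10 genes. Plod1 (ENSMUSG00000019055, chromosome 4), which acts on lysines of the triple helix, was at 1431, 1491 and 989 in the controls and 1828, 2316, 812 and 654 in the knockouts. Plod3 (ENSMUSG00000004846, chromosome 5), which also adds sugars to hydroxylysine, was at 993, 1111 and 957 in the controls and 1738, 1451, 1030 and 1193 in the knockouts. Of the knockouts 3F alone lay within the control range of Plod3, and the means were 1021 ± 80.4 (SD, n = 3) and 1353 ± 309 (SD, n = 4).

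The chaperones differed in how far they ranged. Serpinh1 (ENSMUSG00000070436, chromosome 7) was at 21190, 10932 and 7231 in the controls and at 18362, 17710, 3158 and 3990 in the knockouts. It was highest in control 4F, and only 3F and 6F lay outside the control range. P4hb (ENSMUSG00000025130, chromosome 11) was at 8381, 5736 and 5422 in the controls and 10168, 9313, 4546 and 4487 in the knockouts, a narrower range of 2.27-fold with the same split as Lox.

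Per M of the library total and per kb of exon, Serpinh1 led at a mean of 383 ± 212 (SD, n = 7) over all libraries, followed by P4hb at 196 ± 48.3, Lox at 167 ± 124, Loxl1 at 160 ± 81.4 and Loxl2 at 147 ± 70.5. Then came Plod3 at 22.2 ± 4.12, Loxl4 at 18.01 ± 13.1, Plod1 at 16.3 ± 5.78, Loxl3 at 5.78 ± 2.34 and Plod2 at 4.91 ± 3.40. Of the neighbours in this order, Loxl2 stood above Plod3 and Plod1 above Loxl3 in 7 of 7 libraries. Serpinh1 stood above P4hb in 6 and Loxl1 above Loxl2 in 6. The other neighbours did not keep their order beyond 5 libraries, with Lox above Loxl1 in 3 and Loxl4 above Plod1 in 3. The thinnest counts were those of Plod2, with 114 to 838 recovered reads per library, so counting error is small beside the spread between libraries.

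In limma with the group term alone, log2 differences of the 10 genes ran from -0.57 ± 0.75 (SE) in Serpinh1 to 0.38 ± 0.21 in Plod3, with adjusted p-values of 1.0 for every member. No member passed an adjusted p of 0.05 and none passed an unadjusted p of 0.05. Over all 18141 genes the shares were 0% and 5.83%. The groups did not overlap in 7.1% of all genes (3.19% above and 3.91% below the controls) and in none of the members. The median log2 difference was 0.059 for the members and 0.025 for all genes tested. With array weights, which let limma down-weight discordant libraries, 3 members passed (Lox at 1.68, Loxl4 at 1.76 and Plod3 at 0.59), as did 20.9% of all genes.

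A second limma fit held the macrophage score as a covariate. It called none of the 10 genes, against 3.74% of all genes (1.47% higher and 2.28% lower in Zfp750_KO). At an unadjusted p of 0.05 it held 1 member, against 17.6% of all genes in either direction and 8.3% higher. That member was Plod3, at 0.40 ± 0.17 log2 units (SE, adjusted p = 0.256). The other differences were -0.40 ± 0.28 in Serpinh1, -0.24 ± 0.34 in Loxl2, 0.43 ± 0.38 in Lox and 0.30 ± 0.21 in Loxl4, and lay between -0.06 and 0.20 in the remaining 5 genes. Without control 4F, Loxl2 was at -0.81 and Serpinh1 at -0.79 in this fit, both past the threshold, as were 8.74% of all genes.

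**Figure D2:**
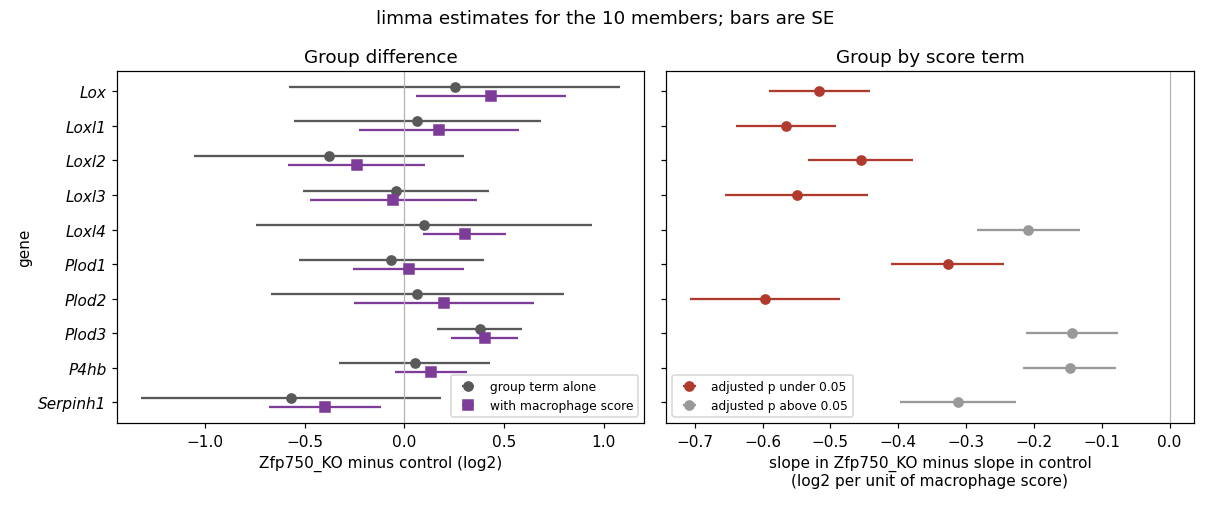
limma estimates for the 10 genes with SE bars: the log2 difference of Zfp750_KO and control in both fits (left) and the slope on the macrophage score in Zfp750_KO minus that in control (right). The left estimates scatter on both sides of 0, and the right estimates are all below 0, with 6 of them past the threshold.

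A further limma fit, with 3 residual degrees of freedom, tested whether the group difference depended on the macrophage score. In Zfp750_KO the scores fall into the same pairs (1M and 2M, 3F and 6F) as the split, so the slope there restates it, and a dependence on the score cannot be told apart from any other difference between the pairs. In this fit 6 of the 10 genes had a more negative slope in Zfp750_KO than in control at an adjusted p under 0.05, and none a more positive slope. Over all genes 5.95% were called, 4.6% negative and 1.35% positive. At an unadjusted p of 0.05 there were 8 members, all negative, against 11.1% of all genes negative and 18.2% in either direction. The slope of Loxl1 was 0.015 ± 0.055 (SE) log2 units per unit of score in control and -0.55 ± 0.05 in Zfp750_KO. The difference of the slopes was -0.57 ± 0.07 (adjusted p = 0.000823). For Lox it was -0.52 ± 0.07 (adjusted p = 0.00167), from slopes of -0.21 in control and -0.73 in Zfp750_KO. It was -0.60 ± 0.11 in Plod2, -0.55 ± 0.11 in Loxl3, -0.46 ± 0.08 in Loxl2 and -0.33 ± 0.08 in Plod1, whose adjusted p-values were 0.00794, 0.00933, 0.00453 and 0.0392.

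The 4 genes that did not pass were also below 0. Serpinh1 was at -0.31 ± 0.09 (SE, adjusted p = 0.0553), Loxl4 at -0.21 ± 0.08 (adjusted p = 0.152), P4hb at -0.15 ± 0.07 and Plod3 at -0.14 ± 0.07. Control 4F was the only control with a low score, so the slope in control rests on it. Without 4F the score spread of the remaining controls was 9.97 to 10.2, and no member and 0.0279% of all genes passed. With a sex term, taken from the letter of the library name with 4M as male, no member and 0.0992% of all genes passed. That fit had fewer than 3 residual degrees of freedom. Within Zfp750_KO the letter splits the libraries as the score does, so sex and score cannot be told apart there. Without control 4M, the library with both Xist and Y-linked RNA, 4 members and 2.61% of all genes passed. With log2 values less the fibroblast score, 4 members passed (Lox, Loxl1, Loxl3 and Plod2), as did 49.5% of all genes.

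**Figure D3:**
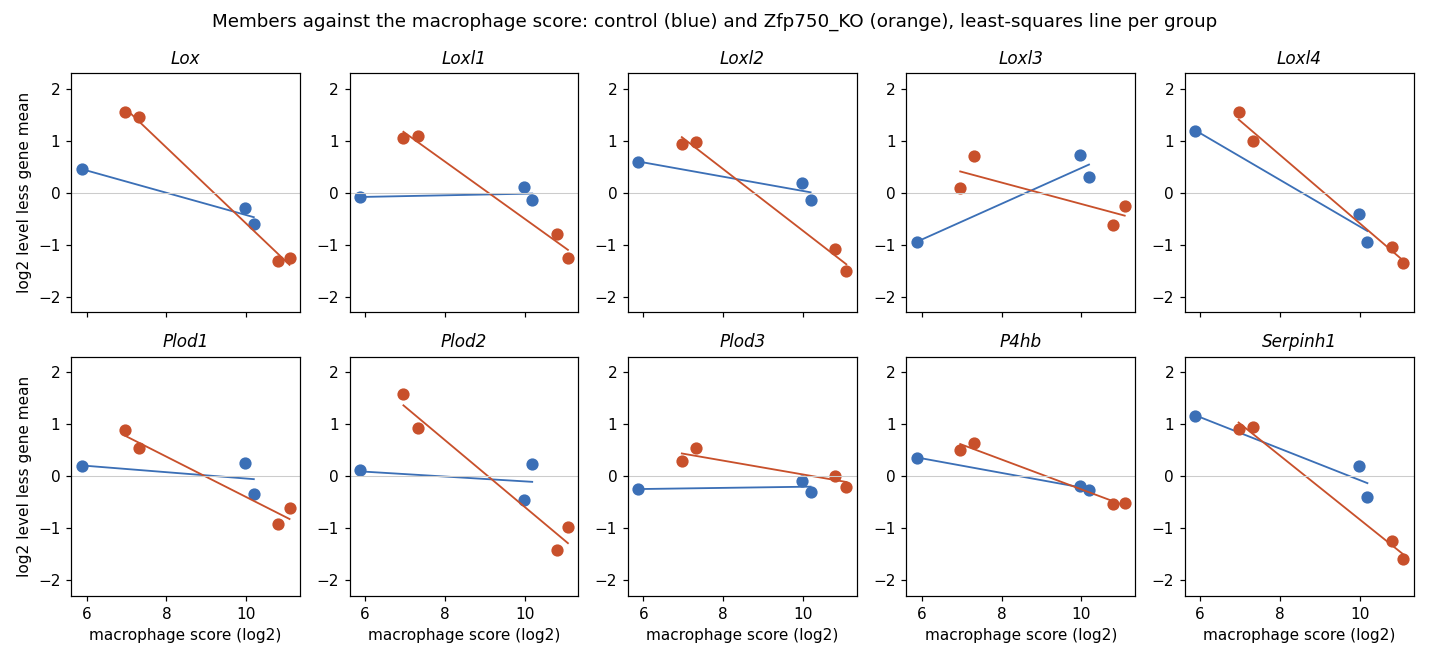
log2 level of each gene, less its mean over the 7 libraries, against the macrophage score of the library, with a least-squares line through the 3 controls and through the 4 Zfp750_KO libraries. In Loxl1 the control line is flat while the Zfp750_KO line falls from 1M and 2M to 3F and 6F.

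Markers of several cell types also had more negative slopes in Zfp750_KO, and their part in the slope term of the members was not tested. Among fibroblast markers 7 of 16 had a more negative slope in Zfp750_KO and none a more positive one, among them Pdgfra, a growth factor receptor of fibroblasts, at -0.45 ± 0.07 (SE, adjusted p = 0.00308) and Dpt, a dermal matrix protein, at -0.58 ± 0.07 (adjusted p = 0.000741). The summed level of the 16 markers was 11197 to 18971 per M in controls and 6515 to 17115 per M in Zfp750_KO, with none of them at 0. The pattern of 1M and 2M above and 3F and 6F below every control was found in 6 of 10 members (Lox, Loxl1, Loxl2, Plod1, Plod2 and P4hb), in 6 of 16 fibroblast markers and in 4.87% of all genes, and the opposite pattern in no member and 3.35% of all genes. Of the lists described below, the first pattern was also found in 5 of 14 further collagen modifiers and 3 of 8 fibrillar collagen chains. It was found in 4 of 16 elastic fibre genes, 3 of 6 other matrix genes and 2 of 14 genes for procollagen export and trimming. None of 14 general chaperones of the endoplasmic reticulum and none of 12 hypoxia response genes had it. Mural and smooth muscle genes, 5 of 8 of which were higher in Zfp750_KO in the fit with the macrophage score, summed to 1193 and 1333 per M in 1M and 2M, to 342 and 493 per M in 3F and 6F and to 727, 286 and 295 per M in the controls. Outside the stroma, a more negative slope passed in 4 of 6 mast cell genes and in 3 of 7 skeletal muscle genes. From 1M and 2M to 3F and 6F the mean log2 level of the mast cell genes rose (7.47, 7.45, 10.1 and 9.62). That of the skeletal muscle genes did not fall (5.37, 5.32, 5.97 and 5.74). No gene of either list had the split pattern. A more negative slope also passed in 5 of 22 macrophage and monocyte genes (with 1 more positive). These 22 make up the score, so their slopes on it are not a separate observation. None of the 14 keratinocyte markers had the split pattern or passed for the slope.

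Levels relative to the fibroblast score were compared next. Of its 16 genes, 5 lay below every control in all 4 knockouts, against 3.91% of all genes. A higher level at a given score cannot be told apart from lower levels of the genes in the score. With the fibroblast score as the covariate in place of the macrophage score, Lox alone of the 10 genes passed. It was higher in Zfp750_KO by 1.13 ± 0.17 log2 units (SE, limma adjusted p = 0.0117), where 4.24% of all genes passed and 2.74% were higher. The log2 difference was 1.04 to 1.21 without each of the 7 libraries in turn, but its adjusted p ran from 0.00231 to 0.103. It lost the call without control 4M, without control 7F, without Zfp750_KO 1M and without Zfp750_KO 2M. The next largest differences were 0.94 ± 0.34 in Loxl4 (adjusted p = 0.183) and 0.80 ± 0.30 in Plod2 (adjusted p = 0.196). Serpinh1 was at 0.20 ± 0.25 and Loxl3 at 0.12 ± 0.46. With the fibroblast score subtracted from the log2 values instead, Lox did not pass (0.74 ± 0.47, SE, limma adjusted p = 0.803). Its groups then overlapped, with a two-sided exact permutation p = 0.229.

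Relative to Col1a1, the main collagen chain that these enzymes act on, Lox stood at 0.97%, 0.712% and 1.17% in the controls and at 3.90%, 3.98%, 5.36% and 1.25% in the knockouts. All 4 knockouts lay above all 3 controls, with a two-sided exact permutation p = 0.0571, the smallest that 35 splits allow. The same held for Loxl1, Plod1, Plod3 and P4hb, so 5 of 10 members separated the groups in this ratio, as did 22.4% of all genes. Col1a1 itself was at 1070000, 869507 and 430041 in the controls and 536011, 561715, 59036 and 243782 in the knockouts, a log2 difference of -1.52 that did not pass in any of the fits. P4hb also separated the groups relative to the fibroblast score, as did 8.75% of all genes in that direction and 0.386% in the other.

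Most ratios among the members themselves overlapped between the groups. Of the 45 pairs of members, 3 had ratios that did not overlap between control and Zfp750_KO. With each member in turn as the reference, the share of all genes that did so ran from 0.888% (Plod2) to 12.5% (Plod3). Loxl1 was at 0.419, 0.638 and 0.668 times Loxl2 in the controls and at 0.725, 0.725, 0.800 and 0.823 times Loxl2 in the knockouts. Relative to Loxl2, 3.04% of all genes were higher in every knockout. Lox was at 0.490, 0.567 and 0.697 times Serpinh1 in the controls and 1.14, 1.26, 1.00 and 0.761 times in the knockouts. Loxl4 was at 0.0779, 0.0490 and 0.0506 times Serpinh1 in the controls and at 0.0788, 0.121, 0.0867 and 0.0856 times in the knockouts. For Loxl4, control 4F and knockout 1M nearly met. Relative to Serpinh1, 3.61% of all genes were higher in every knockout. The exact permutation p was 0.0571 for each of the 3 pairs, the smallest possible, and no adjustment over 45 pairs could bring it under 0.05.

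Per kb of exon, Loxl2 made up 35.8%, 34.3% and 33.8% of the lysyl oxidase level in the controls and 26.6%, 25.4%, 26.8% and 29.5% in the knockouts. This share was lower in all 4 knockouts (34.7 ± 1.03%, SD, n = 3, against 27.1 ± 1.76%, SD, n = 4; exact permutation p = 0.0571). That p is the smallest that 35 splits allow, so no adjustment over the shares could bring it under 0.05. The other shares of both families had exact permutation p-values of 0.171 to 0.971. The share of Loxl2 is not independent of the ratio of Loxl1 to Loxl2 above. Lox held 25.1% to 33.1% in controls and 25.7% to 39.6% in Zfp750_KO, and Loxl1 24.6% to 37.0% and 30.2% to 39.9%. Loxl3 and Loxl4 each held at most 5.98% in any library. Among the lysyl hydroxylases Plod3 held 45.4% to 51.0% in controls and 39.5% to 69.9% in Zfp750_KO, highest in 6F and 3F, where Plod2 was at 4.47% and 6.40%.

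**Figure D4:**
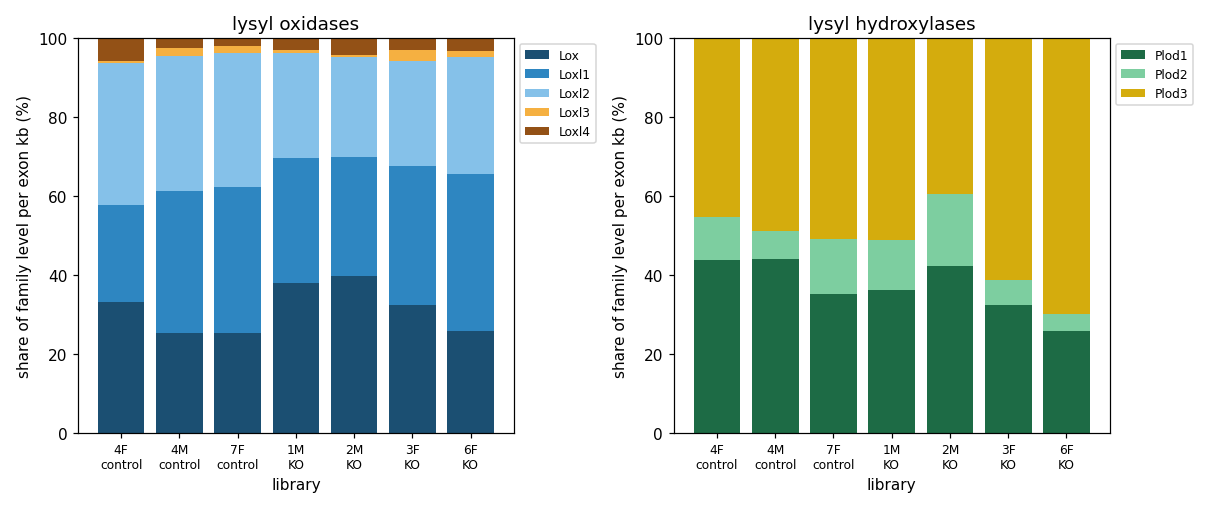
Share in % of each gene in the summed level per exon kb of its family, in each library, for the 5 lysyl oxidases (left) and the 3 lysyl hydroxylases (right). Loxl2 takes 33.8% to 35.8% of the lysyl oxidase level in controls and 25.4% to 29.5% in Zfp750_KO.

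Other genes of collagen maturation were counted from lists. In the fit with the macrophage score used for them, 2.28% of all genes were lower in Zfp750_KO and 1.47% higher. Lower in it were also 4 of 16 fibroblast markers (Fap, Cd34, Mfap5 and Ly6a) and 6 of 7 skeletal muscle markers. In all 4 knockouts 5 of the 16 fibroblast markers lay below every control, as did 3.91% of all genes. The summed level of the skeletal muscle markers was 93.6 to 522 per M in controls and 47.0 to 63.1 per M in Zfp750_KO, with the part of either list in the results below not tested. Of 14 further modifiers of collagen, 1 fell in the fit with the macrophage score: Colgalt2, a galactosyltransferase for hydroxylysine, by 1.23 log2 units (SE 0.18, adjusted p = 0.00874). Its normalized counts were 224 ± 58.1 (SD, n = 3) in the controls, and all 4 knockouts lay lower, at 89.9 ± 12.2 (SD, n = 4). No modifier rose. The slope differed in 7 of the 14, all negative. Over all genes 4.6% passed for a negative slope difference, which is also the share for the lists below. P4ha3, an alpha subunit of prolyl 4-hydroxylase, had the largest such difference, -0.91 ± 0.12 (adjusted p = 0.000867), with counts of 445 and 343 in 1M and 2M against 21.7 to 41.7 in the other libraries. P4ha1, the alpha subunit that is found in most tissues, had a slope difference of -0.06 ± 0.07 and a group difference of 0.0010 ± 0.25. P3h1 and Crtap, which form the prolyl 3-hydroxylase complex, and Fkbp10, a collagen chaperone, had slope differences of -0.38, -0.27 and -0.45, all past the threshold.

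Of 14 genes for procollagen export and trimming, 2 fell and none rose in the fit with the macrophage score, against 2.28% and 1.47% of all genes. Both are enhancers of procollagen C-proteinase: the log2 difference was -1.69 ± 0.19 (SE, adjusted p = 0.0032) in Pcolce2 and -0.997 ± 0.21 (adjusted p = 0.0349) in Pcolce, and every knockout lay below every control. Pcolce2 was at 4803, 2187 and 2196 in the controls and at 1279, 928, 493 and 781 in the knockouts. Of these 14 genes, 4 passed for a negative slope difference and none for a positive one. Among 8 fibrillar collagen chains tested, Col11a1 rose by 2.52 ± 0.27 (adjusted p = 0.00319), and 3 of the 8, the type V chains Col5a1, Col5a2 and Col5a3, passed for a negative slope difference. Of 16 elastic fibre genes Ltbp4 and Mfap5 fell, with log2 differences of -1.33 and -1.003, and 7 passed for a negative slope difference, among them Fbln5, a fibulin that binds Loxl1 and elastin, at -0.66 ± 0.07 (adjusted p = 0.000279). Mfap5 and Fbln1 are in this list and also among the fibroblast markers, so the fall of Mfap5 is counted in both lists. Of 6 other genes of the matrix and its cross-linking (Tgm2, Pxdn, Fmod, Lum, Dcn and Bgn) none passed for the group. Lum and Dcn are also counted among the fibroblast markers. For the slope difference 3 of the 6 passed as negative and 1, Tgm2, as positive, against 1.35% of all genes positive. Pxdn, the peroxidase that forms sulfilimine cross-links in type IV collagen, had a slope difference of -0.89 ± 0.07 (adjusted p = 2.83e-05), and Tgm2, a transglutaminase, one of 0.37.

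None of 14 general chaperones of the endoplasmic reticulum passed in either fit for the group or for the slope. At an unadjusted p of 0.05 their counts were 0 with the group term, 1 with the macrophage score and 1 for the slope. The slope difference was negative in 1 of these 14, in all 10 members and in 8701 of all 18141 genes. Each sign rests on the same 7 libraries, so the genes of a list are not separate observations. Of 12 hypoxia response genes 4 rose in the fit with the macrophage score, against 1.47% of all genes. They were Egln3, a prolyl hydroxylase of hypoxia-inducible factor, by 1.37 on the log2 scale, Ndrg1 by 1.12, Bnip3 by 0.88 and Slc2a1, which carries glucose into cells, by 0.88. None of the 12 passed for the slope.

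The nearest profiles over the 7 libraries, by the root mean square difference of centred log2 levels among 11233 genes, are given for each member. Lox lay nearest Mmp14, a membrane-bound collagenase (0.106 log2 units), and Cd276 (0.132). Loxl2 lay nearest the matrix gene Ccdc80 (0.0714) and Sobp (0.12), and Loxl1 nearest Ephb2 (0.134) and Samd14 (0.135). P4hb lay nearest Sec61a1, the channel through which nascent chains enter the endoplasmic reticulum (0.0545), and Idh2 (0.0644). Serpinh1 lay nearest Plpp1 (0.124) and Kdelr3, a receptor that retrieves proteins to that compartment (0.126). Plod3 lay nearest Arhgap1 (0.0604) and Pbxip1 (0.0716), Plod1 nearest Chst10 (0.111) and Magi2 (0.116), and Loxl4 nearest Mkx (0.158) and Itgbl1 (0.174). Plod2, nearest Pcdhb14 (0.176) and Pkd2 (0.267), and Loxl3, nearest Tshz2 (0.185) and Klf12 (0.236), had less close neighbours. Among the members, Loxl2 and Serpinh1 (0.246) and Plod1 and P4hb (0.274) lay closest, and Loxl3 and Loxl4 (1.26) farthest apart.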

How the data were processed

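Bulk RNA-seq of sorted tdTomato-expressing mouse skin cells was analysed from 1 table of normalized counts for 25322 genes, which the authors deposited and which hold a scaled signal in place of raw counts. Per the submitters' processing notes, TopHat2 2.1.0 and Partek 9.0.20.0202 were used; the sources used here give no build, normalization method or strand setting. Steps in the low values gave the worth of 1 read, but of the values below 200 reads only 78.1% to 79.6% per library came out whole (tolerance 0.02 reads), so whole reads were not recovered and no count test was run. Read totals come from these steps.

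The low-value filter kept 18141 genes that reached 1 per M of their column's total in 3 or more libraries. They were tested as log2(value + 11.9), a pseudocount equal to 1 per M of the median total. A difference on this scale understates changes of low genes. limma 3.58.1 in R 4.3.3 (lmFit, eBayes with trend) was fitted over all tested genes with Benjamini-Hochberg adjustment at 0.05: group alone, group with the macrophage score, and their product. Values that are no gene's own level were compared by a two-sided exact permutation test over 35 splits. Fits were tested on simulated data. Columns were assigned to groups by their names. Exon lengths are the union of exons in GENCODE M21, whose positions were not mixed with the table's.

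Members and lists were chosen with earlier results of these data known. All 10 members are described. From each other list, genes past the threshold are named (up to 4), with some others chosen after their values were seen, and the 2 nearest profiles per member are named among genes whose mean reaches 5 per M. Alternatives were other pseudocounts, filters, scalings, moderation, weights and covariates, and leaving out each library.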

Additional observations from a re-analysis of the deposited data

Results flagged for a closer look

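The difference between Zfp750_KO and control varied with the macrophage score of the library in 6 of the 10 genes, by the limma test of the slope difference (log2 units per unit of score): Loxl1 at -0.57, Lox at -0.52, Loxl2 at -0.46, Loxl3 at -0.55, Plod2 at -0.60 and Plod1 at -0.33. Over all genes 4.6% passed with a negative and 1.35% with a positive slope difference. No member passed without control 4F (0.0279% of all genes) or with a sex term (0.0992%). The scores of the knockouts fall into 2 pairs and 1 control alone has a low score, so the slope difference cannot be told apart from other differences between those libraries. In Lox, Loxl1, Loxl2, Plod1 and Plod2 the knockouts with low scores stood above every control and those with high scores below. Loxl3 differed in that its control level was lowest in 4F.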

How the results depend on the processing

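The group term alone called no member under the alternatives run, except with array weights and with the fibroblast score as covariate. Array weights called 3 members and 20.9% of all genes, and the fibroblast score called 1 (Lox) and 4.24% of all genes. The fit with the macrophage score called none except without control 4F (2, Loxl2 and Serpinh1, with 8.74% of all genes). Its range over libraries left out was thus 0 to 2. The slope difference was called in 4 to 7 members under the other settings, where 2.61% to 49.5% of all genes were called. It was called in 0 without control 4F (0.0279% of all genes) and in 0 with a sex term (0.0992%). Its range over libraries left out was 0 to 6. Without 4F the controls hardly differ in score, which by construction leaves their slope undetermined. Plod1 was the least stable of the 6, called in 7 of 17 settings, and Serpinh1, not called as reported, passed in 5 of 17. The sex term and the fibroblast-score scaling of the fits with the macrophage score were chosen after seeing the data, as was leaving out each library for Lox.

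With array weights, sign changes were with the group term Loxl2 at 0.73, Plod1 at 0.73 and Serpinh1 at 0.82, with the macrophage score Loxl1 at -0.21, Plod1 at -0.11 and Plod2 at -0.32. With the fibroblast score as covariate, sign changes were with the group term Loxl2 at 0.31, Loxl3 at 0.12, Plod1 at 0.39 and Serpinh1 at 0.20. With log2 values less the fibroblast score, sign changes were with the group term Loxl2 at 0.11, Loxl3 at 0.45 and Plod1 at 0.43, with the macrophage score Loxl2 at 0.15 and Loxl3 at 0.33, for the slope difference Loxl4 at 0.067, Plod3 at 0.13 and P4hb at 0.13. With quantile normalization, sign changes were with the group term Loxl1 at -0.11 and P4hb at -0.071, with the macrophage score Loxl1 at -0.030, Plod1 at -0.069 and P4hb at -0.023. With a sex term, sign changes were with the group term Lox at -0.011, Loxl1 at -0.16, Loxl4 at -0.11, Plod2 at -0.14 and P4hb at -0.041, with the macrophage score Loxl1 at -0.038 and Plod1 at -0.13. None of these sign changes passed the threshold. The cause of these changes was not tested. Leaving out each library in turn, estimates with the group term that changed sign ran from -0.23 to 0.73 in Lox, -0.29 to 0.49 in Loxl1, -0.76 to 0.066 in Loxl2, -0.53 to 0.31 in Loxl3, -0.41 to 0.72 in Loxl4, -0.15 to 0.25 in P4hb, -0.37 to 0.23 in Plod1 and -0.45 to 0.55 in Plod2. Leaving out each library in turn, estimates with the macrophage score that changed sign ran from -0.21 to 0.72 in Lox, -0.53 to 0.49 in Loxl1, -0.81 to 0.038 in Loxl2, -0.75 to 0.32 in Loxl3, -0.050 to 0.21 in P4hb, -0.39 to 0.33 in Plod1 and -0.53 to 0.71 in Plod2. Leaving out each library in turn, estimates for the slope difference that changed sign ran from -0.56 to 0.64 in Lox, -0.60 to 0.63 in Loxl1, -0.49 to 0.89 in Loxl2, -0.65 to 1.81 in Loxl3, -0.27 to 1.82 in Loxl4, -0.18 to 0.088 in P4hb, -0.40 to 2.32 in Plod1, -0.19 to 0.85 in Plod3 and -0.38 to 2.14 in Serpinh1. No paired analysis was possible because the columns carry no replicate numbers of the labels. Whole reads were not recovered, so edgeR was not run.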
